A study of Homo sapiens with 6 samples.

Results

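The genes described here encode the proteins of the mitochondrial ribosome, and they were chosen by name, as every gene whose symbol reads MRPL or MRPS followed by a number and at most 1 letter (A, B or C). The arrays held 75 such genes among 19775 genes that had a probe set with a single gene symbol, 48 of the large subunit (MRPL) and 27 of the small subunit (MRPS). Each was read from its brightest probe set, which passed the filter on low signals for 75 of 75 genes. The 75 genes had 140 probe sets in all, of which 126 passed the filter and 14 did not. RefSeq lists 77 such symbols, and the other 2, MRPS24 and MRPL53, were read only by probe sets that also carry another gene's symbol and are not described.

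The study compared Caco2 cells, a human colorectal adenocarcinoma line, that are resistant to methotrexate (MTX), an antifolate, with the sensitive cells they came from. Resistant cells were obtained by stepwise exposure to MTX until they tolerated 10 µM, and were kept in a selective medium without glycine, hypoxanthine and thymidine, with dialyzed serum. Parental cells grew in Ham's F12 medium with fetal bovine serum, so that medium and resistance cannot be told apart, and it is not stated whether MTX was present at harvest. RNA of 3 resistant and 3 parental samples was hybridised to 1 array each, and nothing in the labels says that the 3 samples of a group were separate cultures, so a p-value here reflects the spread among 3 samples that may be technical repeats.

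Mitochondria keep a small genome of their own, and its messages, all for subunits of the respiratory chain and ATP synthase, are translated inside the organelle. The mitochondrial ribosome that does this takes its rRNA from the mitochondrial genome and all of its proteins from nuclear genes, whose products are imported. Many of these proteins have counterparts in the bacterial ribosome, while others are found only in mitochondria and cover or replace parts of the rRNA. The small subunit decodes the message, and the large subunit joins the amino acids and guides the growing chain to the inner membrane.

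Promoters are printed first for 5 of the 6 genes that changed (the table used has no entry for MRPL23), because nuclear genes for mitochondrial proteins are known for sites of NRF1 and of ETS factors such as GABPA near their start. They come from RefSeq (GRCh38.p14) and run 5′ to 3′ along the gene's strand, from 120 bases before the transcription start to 30 bases after it. Capitals mark matches, on either strand, to an NRF1 core (GCATGCG), an ETS motif (CCGGAAG), a YY1 motif (AAGATGG), an E-box (CACGTG) or a GC box (GGGCGG). MRPL16, a counterpart of bacterial L16, lies at chr11:59810749-59810898 (minus strand), and MRPL17, a counterpart of L17, at chr11:6683311-6683460 (minus strand). MRPL45, which in mitochondria holds the large subunit at the inner membrane, lies at chr17:38297048-38297197 (plus strand). MRPL57, found only in mitochondrial ribosomes, lies at chr13:21176538-21176687 (plus strand), and MRPS6, a counterpart of bacterial S6, at chr21:34073458-34073607 (plus strand).
MRPS6: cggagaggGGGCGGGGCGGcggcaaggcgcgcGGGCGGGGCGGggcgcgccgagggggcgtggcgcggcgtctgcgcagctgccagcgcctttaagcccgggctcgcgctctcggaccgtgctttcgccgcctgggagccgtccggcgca
MRPL17: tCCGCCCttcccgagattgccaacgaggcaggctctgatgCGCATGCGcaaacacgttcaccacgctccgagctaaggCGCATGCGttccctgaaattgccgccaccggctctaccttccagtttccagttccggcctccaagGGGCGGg
MRPL16: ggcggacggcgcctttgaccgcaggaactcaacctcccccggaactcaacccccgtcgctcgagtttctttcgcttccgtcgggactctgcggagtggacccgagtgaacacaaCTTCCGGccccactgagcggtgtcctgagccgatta
MRPL45: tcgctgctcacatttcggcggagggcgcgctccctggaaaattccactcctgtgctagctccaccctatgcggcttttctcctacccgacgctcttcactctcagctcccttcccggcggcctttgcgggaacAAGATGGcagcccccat
MRPL57: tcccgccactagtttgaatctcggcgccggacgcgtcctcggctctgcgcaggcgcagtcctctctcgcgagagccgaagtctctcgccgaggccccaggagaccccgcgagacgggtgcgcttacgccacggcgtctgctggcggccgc
The stretch of MRPS6 carried 4 GC boxes in overlapping pairs and no other match. The stretch of MRPL17 held the NRF1 core at 2 places, each read on both strands because the letters nearly mirror themselves, with the first 80 bases before the start, and a GC box near each end. MRPL16 had an ETS match that began 6 bases before the start, MRPL45 had a YY1 match that began 14 bases after it, and MRPL57 had none of the 5 motifs in its stretch.

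The search for these motifs was run over the whole promoter window, 250 bases before to 50 bases after the start, for the 67 genes of the set that had one. The ETS motif was in 28 of 67 promoters (41.8%), against 10.7% of all 27305 promoters and 19.7% of the promoters of 9680 genes tested on these arrays. The YY1 motif was in 22 of 67 (32.8%), against 6.06% of all promoters and 7.75% of those of tested genes, and the NRF1 core was in 7 of 67 (10.4%), against 4.13% and 6.35%. ETS, YY1 and NRF1 letters were thus more frequent here than in either background, the NRF1 core by least and in only 7 promoters. The GC box (40 of 67, 59.7%) lay between the 44.6% of all promoters and the 69.7% of tested genes. The E-box was in 6 of 67 (8.96%), against 7.43% of all promoters and 10.3% of those of tested genes. The change between resistant and parental cells is given beside these matches. On the log2 scale the median change was 0.02 with the ETS motif and 0.12 without, -0.04 with the YY1 motif and 0.15 without, and 0.05 with the NRF1 core and 0.07 without. It was 0.14 with a GC box and -0.02 without. These matches are a description of letters and were not tested against the expression values.

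**Figure D1:**
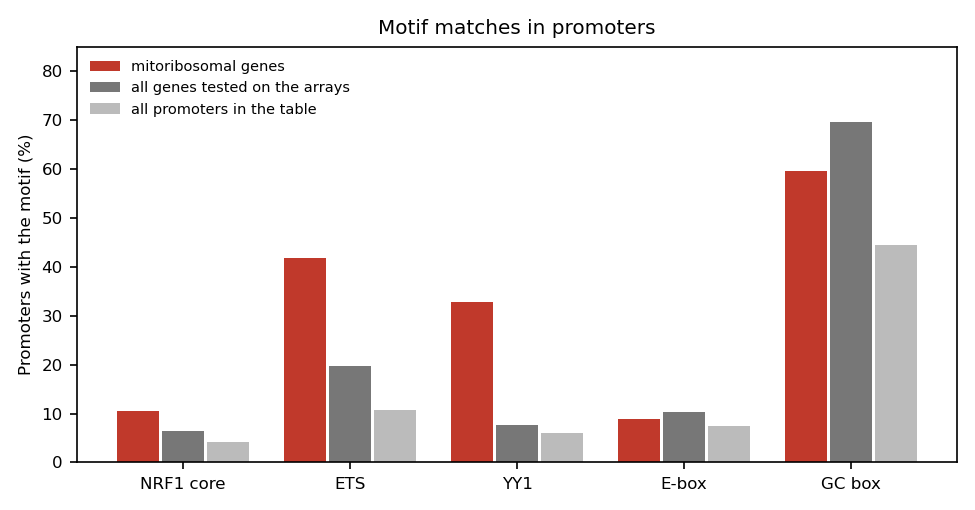
Share of promoters (y axis, percent) that hold each of 5 motifs (x axis) among 67 mitoribosomal genes, the genes tested on the arrays and all promoters in the table. The ETS motif was in 41.8% of mitoribosomal promoters and 10.7% of all promoters, and the YY1 motif in 32.8% and 6.06%.

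Before the results, 1 array has to be pointed out. Across probe sets, parental array 3 correlated with the other parental arrays at 0.949 and 0.946, whereas parental arrays 1 and 2 correlated at 0.966 with each other and resistant arrays at 0.968 to 0.971 among themselves. Parental array 3 was also closer to the resistant arrays over all tested probe sets. It correlated with them at 0.935 to 0.939, against 0.924 to 0.929 for parental array 1 and 0.914 to 0.920 for parental array 2. Signals are given as multiples of the array's own median, which lay between 10.6 and 12.8 units on the 6 arrays. Of 9 markers of intestinal epithelium, 8 averaged at least 1 array median, and their summed level was 2391 to 2489 medians in resistant cells and 1564 to 1922 in parental cells. CDX2 was below the median, at 0.483 in resistant cells and 0.156 in parental cells. Fibroblast markers (2 of 6 at 1 median or more) summed to 7.49 to 8.38 in resistant and 4.95 to 5.70 in parental cells, and endothelial markers (1 of 3) to 2.57 to 2.90 and 2.06 to 3.5. Leukocyte markers (3 of 5) summed to 503 to 559 in resistant and 300 to 361 in parental cells, nearly all of it from LYZ, while PTPRC stayed at 0.31 and 0.38. The part of these marker differences in the results below was not tested.

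Of the 75 genes, 6 passed an adjusted p of 0.05 (limma, adjusted over 26563 tested probe sets), or 8%, against 12.4% of the 11849 tested genes, each likewise read from its brightest probe set (10% of all tested probe sets). In resistant cells 5 rose, MRPS6, MRPL23, MRPL16, MRPL17 and MRPL45, or 6.67% against 7.37% of tested genes. MRPL57 alone fell, 1.33% against 5.05%. MRPS6 was the only one of the 6 that changed at least 2-fold, 1.33% against 5.54%. In this fit each of these shares lay below that of all tested genes, the share that rose only slightly. The order depended on the setting. Without the filter on low signals 6.67% of the set passed, against 5.59% of 19775 tested genes. Without parental array 3 the shares were 40.0% and 32.2%. At an unadjusted p of 0.05, 18 genes were higher (24%, against 17.3% of tested genes) and 5 lower (6.67%, against 13.5%).

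Changes were small in most of the set. The 95% interval of the change lay within 2-fold in either direction for 70 of 75 genes (93.3%), against 67.7% of the 11849 tested genes and 83.5% of the 5966 genes at least as bright as the dimmest of the 75. Such intervals were also found for 95.8% of 72 genes for the respiratory chain and ATP synthase and 96.4% of 55 cytosolic ribosomal proteins. The middle part of the set ran from -0.08 to 0.33 on the log2 scale (quartiles), against -0.28 to 0.31 over all tested genes. Over the 5966 genes at least as bright it ran from -0.24 to 0.28. The median change was 0.07 over the 75 genes and 0.02 over all tested genes, with 46 genes above 0 and 29 below. All resistant arrays stood above all parental arrays for 16 genes (21.3%), against 20.2% of tested genes, and below them for 7 genes (9.33%), against 15.2%.

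**Figure D2:**
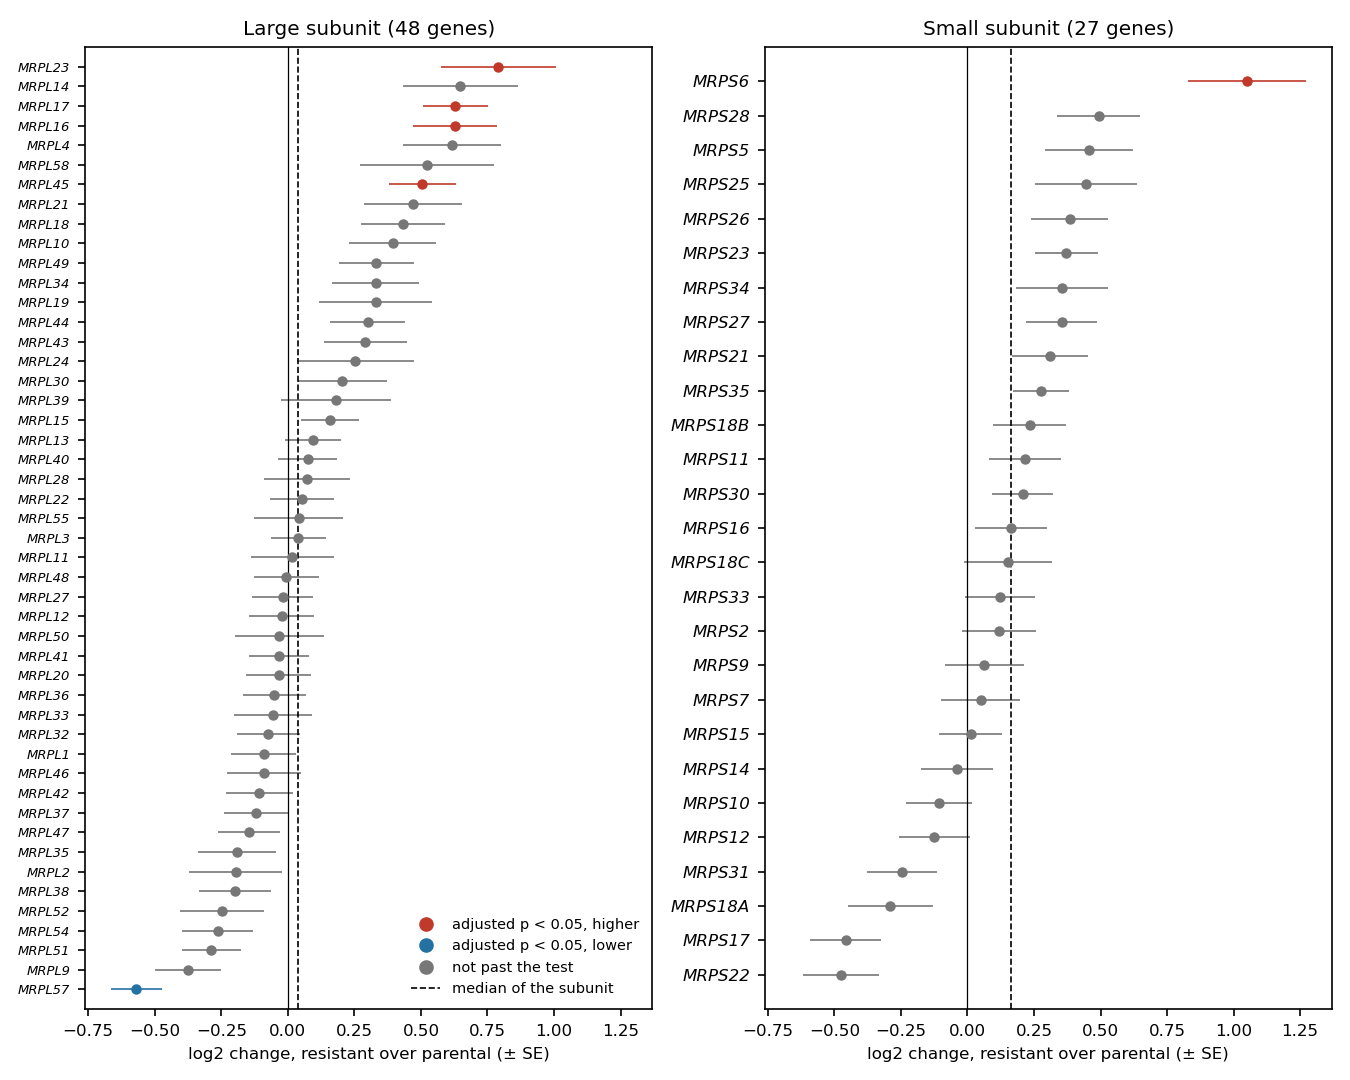
Log2 change, resistant over parental (x axis, dots with bars of 1 SE, n = 3 arrays each), of 48 large subunit and 27 small subunit genes (y axis), ordered by size. Coloured dots are the 5 genes that rose and the 1 that fell at an adjusted p below 0.05, and the dashed lines mark the medians, 0.04 in the large and 0.16 in the small subunit.

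The small subunit held both the gene with the largest increase and the higher median. Its median change was 0.16 over 27 genes, with 20 genes above 0 and quartiles of -0.01 and 0.36. Of the 27, 1 rose (3.70%) and 0 fell. An unadjusted p of 0.05 was reached by 10, 8 higher (29.6%) and 2 lower (7.41%). The large subunit had a median change of 0.04 over 48 genes, with 26 genes above 0 and quartiles of -0.09 and 0.33. Of the 48, 4 rose (8.33%) and 1 fell (2.08%). An unadjusted p of 0.05 was reached by 13, 10 higher (20.8%) and 3 lower (6.25%). Of all tested genes 7.37% rose and 5.05% fell, and 17.3% were higher and 13.5% lower at that unadjusted p. All resistant arrays were above all parental arrays for 9 small subunit genes (33.3%) and 7 large subunit genes (14.6%), beside the 20.2% of tested genes given above. They were below for 3 small subunit genes (11.1%) and 4 large subunit genes (8.33%), beside 15.2%. The large subunit's median was below the small subunit's by 0.12 on the log2 scale. No test was made of this difference. Without division by the array median, the large subunit's median turned to -0.042 and the small subunit's was 0.082, beside -0.068 over all tested genes.

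Array by array, the median small subunit gene stood at 0.12, 0.19 and 0.26 from its own parental mean in resistant cells and at -0.06, -0.05 and 0.15 in parental cells, on the log2 scale. The third parental array thus lay inside the resistant range. For large subunit genes the medians were 0.01, 0.03 and 0.09 in resistant and -0.02, -0.03 and 0.06 in parental cells, again with parental array 3 inside the resistant range. Over all tested genes they were 0.00, -0.01 and 0.09 in resistant and 0.04, 0.00 and -0.03 in parental cells, so that parental array 3 stood highest among the parental arrays for both subunits and lowest over all genes.

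**Figure D3:**
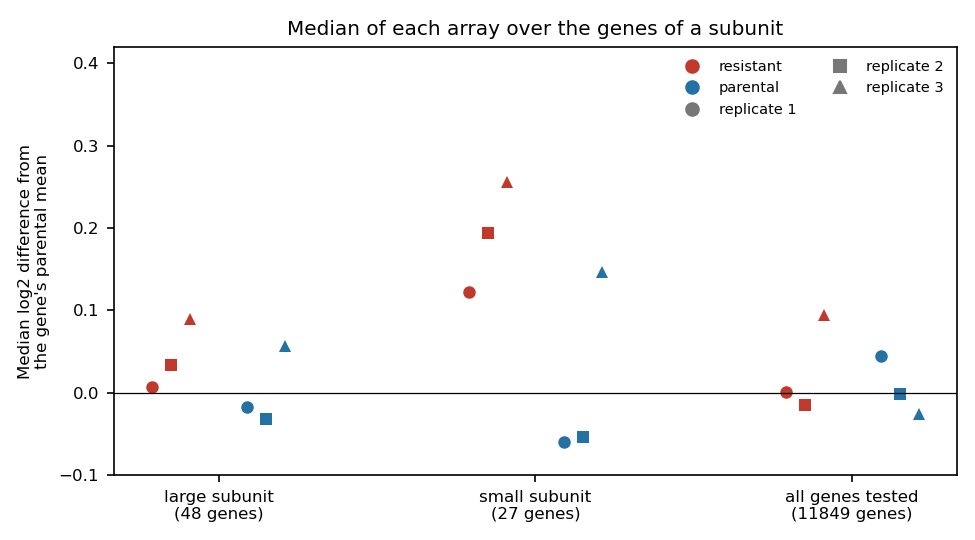
Median log2 difference of each array from the gene's parental mean (y axis) over 48 large subunit genes, 27 small subunit genes and 11849 tested genes (x axis), with resistant arrays left of parental arrays and a symbol for each replicate. Parental array 3 sits at 0.15 in the small subunit, between the resistant arrays at 0.12 and 0.26.

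Proteins found only in mitochondria and those with bacterial counterparts were also set apart, with all 3 S18 relatives counted among the second kind. The subunit was taken from the symbol here. MRPS30 and MRPS18A, which sit in the large subunit, were therefore kept with the small one, and the classes were not read with them moved. Among MRPS genes the 10 mitochondrial ones had a median change of 0.32 and none passed the limma test. At an unadjusted p of 0.05, 5 of the 10 were higher (50%) and 1 lower (10%). The 17 with counterparts had a median of 0.12 with 1 that rose, MRPS6 (5.88%). Unadjusted, 3 of the 17 were higher (17.6%) and 1 lower (5.88%). Among MRPL genes the order was the opposite, -0.03 over 18 mitochondrial proteins and 0.06 over 30 with counterparts. Of the 18, 1 rose, MRPL45, and 1 fell, MRPL57 (5.56% each), and unadjusted 2 were higher and 2 lower (11.1% each). Of the 30, 3 rose (10%), and unadjusted 8 were higher (26.7%) and 1 lower (3.33%). Of all tested genes 7.37% rose and 5.05% fell, and unadjusted 17.3% were higher and 13.5% lower. With MRPS18A and MRPS18B, whose current protein names are those of mitochondrial proteins, moved to the first kind, a choice made after seeing the data, the small subunit medians were 0.26 and 0.12. The difference between the classes was not tested.

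MRPS6 had the largest change of the set. Its signal was 96.0, 118 and 107 times the array median in resistant cells and 49.5, 36.7 and 74.6 in parental cells. The resistant arrays were all above the parental ones, although parental array 3 was well above the other 2. The change was 2.07-fold (log2 1.05 ± 0.22 SE, adjusted p = 0.018). In RefSeq the MRPS6 gene on chromosome 21 overlaps SLC5A3, a myo-inositol transporter gene with a probe set of its own, which stood at 67.5, 68.1 and 63.4 in resistant and 22.0, 16.4 and 27.5 in parental cells. SLC5A3 rose 3.09-fold (log2 1.63 ± 0.18, adjusted p = 0.000689). Over all 118 tested genes of chromosome 21, the median change was 0.09, 11 were called higher and 4 lower.

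MRPL23, MRPL16 and MRPL17 are counterparts of bacterial proteins of the large subunit, and all lie on chromosome 11. MRPL23, whose bacterial counterpart sits at the exit of the tunnel for the new chain, had signals of 76.2, 81.8 and 86.2 in resistant and 45.7, 33.7 and 67.5 in parental cells (1.73-fold, log2 0.79 ± 0.22, adjusted p = 0.046). MRPL16, whose counterpart lies near the tRNA sites, had 72.4, 73.9 and 71.3 in resistant and 47.6, 37.7 and 57.6 in parental cells (1.55-fold, log2 0.63 ± 0.16, adjusted p = 0.033). Both showed no overlap between the groups, with parental array 3 nearest to the resistant ones. The calls were not stable, since MRPL23 passed in 7 of 17 alternatives (its adjusted p was 0.053 after quantile normalization and 0.062 without the filter) and MRPL16 in 8 of 17. MRPL17 had 69.1, 73.5 and 72.8 in resistant and 47.6, 41.6 and 50.7 in parental cells (1.55-fold, log2 0.63 ± 0.12, adjusted p = 0.012). The resistant arrays of MRPL17 were again all above the parental ones, and it passed in 12 of 17 alternatives. The 7 genes of the set on chromosome 11 had a median change of 0.47, with 3 that rose, MRPL23, MRPL16 and MRPL17. The 715 tested genes of that chromosome had a median of 0.04, with 58 that rose and 31 that fell. Chromosome 11 is given because these 3 called genes lie on it. The median of the 7 is therefore not independent of the calls. The locus of MRPL23 overlaps the noncoding genes MRPL23-AS1 and H19 in RefSeq, which are not analysed here.

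MRPL45 had signals of 48.1, 58.6 and 53.0 in resistant and 38.6, 36.0 and 37.6 in parental cells. Here parental array 3 lay between the other parental arrays, and the groups did not overlap. The change was 1.42-fold (log2 0.51 ± 0.13, adjusted p = 0.034), and it passed in 8 of 17 alternatives.

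MRPL57 had signals of 128, 125 and 136 in resistant cells and 196, 197 and 184 in parental cells. All resistant arrays were below all parental ones. The level was 1.48-fold lower in resistant cells (log2 -0.57 ± 0.10, adjusted p = 0.00605). Its other 3 tested probe sets pointed the same way, with log2 changes of -0.90 (adjusted p = 0.029), -0.66 (0.020) and -0.66 (0.27). The last of these shares probes with other transcripts and did not pass the test. The brightest probe set of MRPL57 is itself of a type that can read several transcripts. MRPL57 lies on chromosome 13, as does MRPS31, a mitochondrial protein of the small subunit that is named here for its position, and whose change was -0.25 (adjusted p = 0.26) with no overlap between the groups. Of the 209 tested genes of chromosome 13, 76 fell and 9 rose (median change -0.47), so that both genes stood in a chromosome whose genes were mostly lower in resistant cells. Whether that has a part in their values was not tested.

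**Figure D4:**
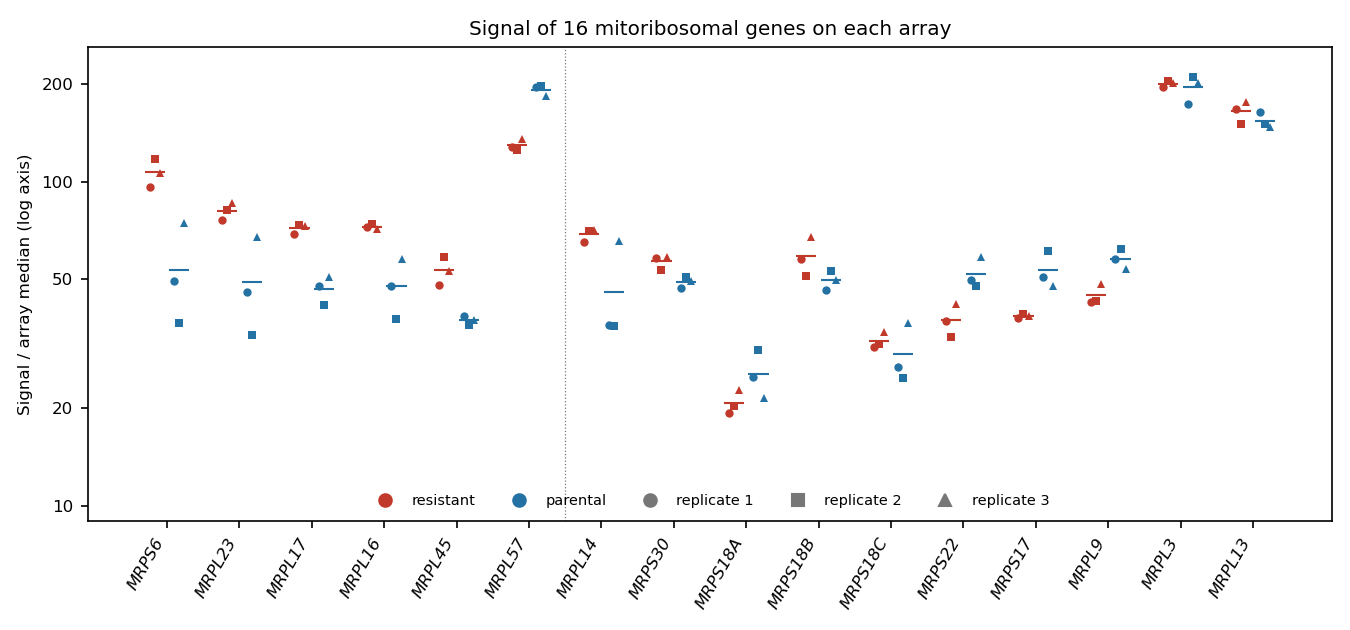
Signal as a multiple of the array median (y axis, log scale) of 16 genes (x axis) on each of 3 resistant and 3 parental arrays, with lines at the means. Left of the dotted line are the 6 genes past the test, and for each of these except MRPL45 parental array 3 (triangles) is the parental array nearest to the resistant ones.

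Other genes named for the size of their change did not pass the test, although the increase of MRPL14 was larger than those of MRPL16, MRPL17 and MRPL45. MRPL14, a counterpart of L14 at the face between the subunits, had signals of 65.1, 70.5 and 71.1 in resistant and 36.2, 35.8 and 65.5 in parental cells (log2 0.65 ± 0.21, adjusted p = 0.084). Parental array 3 alone overlapped the resistant arrays. MRPS22, a mitochondrial protein of the small subunit in which mutations cause human disease, had 37.1, 33.2 and 42.0 in resistant and 49.7, 47.6 and 58.7 in parental cells (log2 -0.47 ± 0.14, adjusted p = 0.062). MRPS17, a counterpart of S17, had 38.1, 39.0 and 38.6 in resistant and 50.8, 61.3 and 47.7 in parental cells (log2 -0.46 ± 0.13, adjusted p = 0.056). In both, all resistant arrays were below the parental ones. The brightest probe set of MRPS22 shares probes with other transcripts, and its other 3, of the same kind, gave log2 changes of -0.07 to -0.18. MRPL9, a counterpart of L9, had 42.6, 42.9 and 48.4 in resistant and 57.7, 61.9 and 54.0 in parental cells (log2 -0.37 ± 0.12, adjusted p = 0.081), with no overlap.

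MRPS18A, MRPS18B and MRPS18C are 3 relatives of bacterial S18, and of these MRPS18A sits in the large subunit in spite of its name. MRPS18A had signals of 19.3, 20.3 and 22.8 in resistant and 25, 30.2 and 21.6 in parental cells (log2 -0.29 ± 0.16, adjusted p = 0.28). MRPS18B had 57.9, 51.3 and 67.4 in resistant and 46.4, 53.1 and 49.9 in parental cells (log2 0.23 ± 0.14, adjusted p = 0.30). MRPS18C had 30.9, 31.5 and 34.3 in resistant and 26.7, 24.8 and 36.6 in parental cells (log2 0.15 ± 0.17, adjusted p = 0.59). The groups overlapped in all 3 genes. MRPS30 is likewise a protein of the large subunit, and its signals of 58.0, 53.5 and 58.7 in resistant and 47.0, 51.0 and 49.5 in parental cells did not overlap (log2 0.21 ± 0.12, adjusted p = 0.28). A dimmer probe set of MRPS30 had 14.8, 14.0 and 12.7 in resistant and 5.5, 6.05 and 9.43 in parental cells and passed the test (log2 1.02 ± 0.21, adjusted p = 0.017), so the call for this gene depends on the probe set. Counting MRPS30 and MRPS18A with the large subunit left the medians at 0.04 and 0.16.

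MRPL3 and MRPL13, named with MRPL57 for the high signal of their probe sets, which ranks no transcript levels, did not pass the test. MRPL3, a counterpart of L3, had signals of 195, 204 and 201 in resistant and 173, 210 and 202 in parental cells (log2 0.04 ± 0.10, 95% interval -0.19 to 0.27), and its sign turned with the scaling of the arrays, at -0.051 after quantile normalization and -0.043 without division by the array median. MRPL13, a counterpart of L13, had 167, 151 and 176 in resistant and 164, 151 and 147 in parental cells (log2 0.09 ± 0.10, 95% interval -0.14 to 0.33). The groups overlapped in both. Of the 29 genes with several tested probe sets, 15 had all of them on the same side of 0 and 14 did not, and calls differed between probe sets for MRPL57 and MRPS30.

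The number of genes that passed depended on single arrays, and most on parental array 3. It was above both other parental arrays for 46 of the 75 genes (61.3%), against 34.9% of tested genes, and below both for 16 (21.3%), against 42.2%. Without it 30 genes passed, 24 higher and 6 lower (40.0%, against 32.2% of tested genes), of which 17 belonged to the large and 13 to the small subunit, and the 6 genes named above were among them. Higher calls made up 32.0% of the set, against 17.0% of tested genes, and lower calls 8%, against 15.2%. Without that array MRPL14 stood at 0.94 ± 0.10 (adjusted p = 0.000104). MRPL58, a peptidyl-tRNA hydrolase built into the large subunit, stood at 0.86, MRPL4 at 0.81 and MRPS28 at 0.65, these 3 being named after their values were seen. The 6 lower genes were MRPL9, MRPL51 (also named after its value was seen), MRPL57, MRPS17, MRPS18A and MRPS22. The medians were then 0.06 in the large and 0.21 in the small subunit. Without any 1 of the resistant arrays, by contrast, only MRPL57 passed (1.33%, against 4.17% to 4.71% of tested genes). Without parental array 1 only MRPL17 and MRPL57 passed (2.67%, against 6.42%). Without parental array 2 these and MRPS6 passed (4%, against 7.48%). With all arrays 12.4% of tested genes passed, so fewer calls with any of these arrays left out were common to all genes.

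Other genes of mitochondrial translation were read in the same way from gene lists, next to all tested genes (873 of 11849 rose, 598 fell). Among 4 ribosomal proteins with other symbols 1 rose, PTCD3 (log2 0.56 ± 0.14, adjusted p = 0.036), and the median change was 0.20. Among 24 factors that assemble the ribosome 1 rose, METTL15, a methyltransferase for rRNA of the small subunit (0.62 ± 0.16, adjusted p = 0.036), and the median was 0.18. Among 16 translation factors 2 rose and 1 fell, with a median of 0.32. MTIF3, the initiation factor that keeps the small subunit free, had signals of 16.1, 17.6 and 17.3 in resistant and 33.7, 29.6 and 42.6 in parental cells and fell 2.05-fold (log2 -1.04 ± 0.16, adjusted p = 0.00418). MTIF3 also lies on chromosome 13. The translation factors that rose were MTRF1L, a release factor (0.67 ± 0.16, adjusted p = 0.029), and MTRES1 (0.54 ± 0.15, adjusted p = 0.045).

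Of 15 genes for upkeep and transcription of the mitochondrial genome 1 rose, ELAC2, which trims mitochondrial tRNAs (0.64 ± 0.17, adjusted p = 0.039), and the median was 0.15. Of 9 nuclear regulators 1 rose, MYC (213, 205 and 202 in resistant and 131, 143 and 146 in parental cells, log2 0.56 ± 0.10, adjusted p = 0.00627), and the median was -0.002. Of 72 nuclear genes for the respiratory chain and ATP synthase 3 rose and 0 fell (17 higher and 3 lower at an unadjusted p of 0.05, or 23.6% and 4.17%, against 17.3% and 13.5% of tested genes), with a median of 0.12. These were ATP5MC1 (0.80 ± 0.17), UQCRC2 (0.69 ± 0.11) and COX7B (0.37 ± 0.10). Of 55 proteins of the cytosolic ribosome 5 rose and 0 fell (29 higher, or 52.7%, and 0 lower at an unadjusted p of 0.05), with a median of 0.18, and all resistant arrays were above all parental arrays for 38 of the 55 (69.1%), against 20.2% of tested genes.

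**Figure D5:**
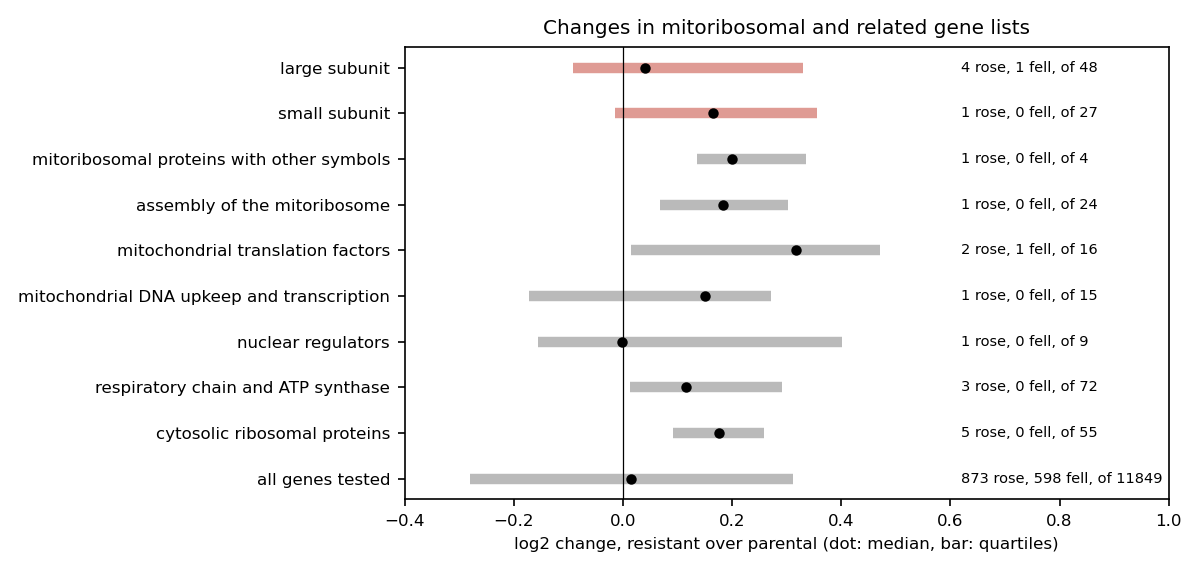
Log2 change, resistant over parental (x axis), of the 2 subunits and 7 related gene lists beside all tested genes (y axis), with the median as a dot, the quartiles as a bar and the counts past the test at the right. The quartiles of the 2 subunits, -0.09 to 0.33 and -0.01 to 0.36, were narrower than those of all tested genes, -0.28 to 0.31. Those of the respiratory chain and ATP synthase, 0.01 to 0.29, and of the cytosolic ribosome, 0.09 to 0.26, were narrow too.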

How the data were processed

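Total RNA of the 6 samples was hybridised to Affymetrix HG U133 Plus 2.0 arrays. The authors deposited 1 linear intensity per probe set and array, and the submitters' processing notes name MAS5, without a version or scaling target in the sources read. The study's methods go on to ratios, which were not used. Groups and replicate numbers came from the sample titles, and 0 value columns fell outside the 6 samples.

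Each intensity was divided by its array's median and taken to log2 (exact zeros as 0.05 units), and 62 control probe sets were left out. The test took the 26563 probe sets whose mean reached 1 array median. Symbols came from the platform annotation, updated to RefSeq (GRCh38.p14). Of the probe sets, 41091 had 1 symbol, 1801 several and 11721 were not listed. A gene was read from its brightest probe set, and levels were not compared between probe sets.

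Groups were compared with limma 3.58.1 in R 4.3.3 (lmFit, and eBayes with a trend over intensity) in a two-sided test. P-values were adjusted by Benjamini-Hochberg over all tested probe sets, after the fit had been tested on simulated data. An exact permutation test of 3 against 3 cannot go below p = 0.1 and was not used. The number of arrays limits the precision. The genes, lists, tests and alternatives were chosen with earlier results of these data known. Genes named are those past the test, the 5 largest changes in each direction, the 3 brightest, MRPS30 and the MRPS18 relatives, and genes whose probe sets disagree in a call. From other lists at most 6 genes past the test were named. Alternatives covered scaling, filter, offset, floor, trend, replicate block, a plain t-test and each array left out. They also covered probe set choice, annotation, the ratio of linear means and the placing of MRPS30 and MRPS18A.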

Additional observations from a re-analysis of the deposited data

How the results depend on the processing

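With 1 array left out, the count of genes past the test ran from 1 to 30, that of genes changed at least 2-fold from 0 to 2, that of genes whose groups did not overlap from 26 to 44, and that of all probe sets past the test from 874 to 7118. The high ends belong to the fit without parental array 3. Without resistant array 1 the groups did not overlap for 37 genes, 29 higher and 8 lower, against 21.7% and 17.5% of tested probe sets. Without parental array 3 they did not overlap for 44 genes, 30 higher and 14 lower, against 25.9% and 27.1%. With all arrays these shares of probe sets were 17.7% and 14.4%, so separation was more frequent over all probe sets too. Without any array other than parental array 3 no gene passed at 2-fold. Over the fits with 1 array left out, the median change ran from 0.02 to 0.07 in the large and from 0.12 to 0.21 in the small subunit. The large minus small difference ran from -0.16 to -0.09 in these fits. Without the intensity trend 0 genes passed in limma (0 at 2-fold, 16 at an unadjusted p of 0.05), and 1202 probe sets did. A plain t-test with pooled variance on the log2 values used here, after Benjamini-Hochberg adjustment, left 1 gene, MRPL57, and 319 probe sets. In it 0 genes passed at 2-fold and 19 reached an unadjusted p of 0.05. It lacked the study's error model and filter on control strength, so its counts are not those of the study's own test. Without probe sets of the types that read several or other transcripts, 40 genes could be tested. Of these 1 passed, MRPS6 (2.5%, against 9.76% of tested probe sets, 1573 in number). MRPL16, MRPL17, MRPL23, MRPL45 and MRPL57 were read from probe sets of the excluded types and were not among the 40. The groups did not overlap for 10 genes, 8 higher and 2 lower, against 17.2% and 13.5% of tested probe sets. Without division by the array median 4 genes passed (3 higher, 1 lower, 0 at 2-fold), the large subunit median was -0.042 and the small subunit median 0.082, and 5.05% of tested genes rose and 5.27% fell, against 7.37% and 5.05% with it. The cause of these shifts was not tested, except that fewer genes or arrays entered where some were left out.

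MRPL57 passed in 16 of 17 alternatives (adjusted p up to 0.063), MRPL17 in 12 of 17 (up to 0.072) and MRPS6 in 12 of 18 (up to 0.18). MRPL16 and MRPL45 passed in 8 of 17 each (up to 0.17 and 0.16) and MRPL23 in 7 of 17 (up to 0.24). These counts include alternatives that could hardly change a call. With gene symbols not updated the fit was the main one. With low signals raised, the log2 change of each of these genes stayed as it was. MRPL3 turned sign after quantile normalization (-0.051) and without division by the array median (-0.043), and with 1 array left out it ran from -0.044 (without parental array 1) to 0.096. Samples with the same replicate number did not deviate together (r of -0.018, -0.022 and -0.016), so no pairing by number was seen. These values cannot show how the samples were prepared. With the replicate number as a block 4 genes passed, MRPL17, MRPL23, MRPL57 and MRPS6. With the mean of a gene's probe sets in place of the brightest, 8 genes passed, 6 higher and 2 lower. MRPL4, MRPS17 and MRPS30 were then among them, and MRPL23 was not (adjusted p = 0.051 in limma). In this setting the median change was 0.041 in the large and 0.121 in the small subunit, and the large minus small difference was -0.081. The count over all probe sets has no value under this mean. The lowest mean of the 75 genes was 10.2 array medians, well above the filter.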
